A study of Mus musculus with 6 samples.

Results

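The genes that take glucose into heart muscle, break it down to lactate or acetyl-CoA and store it as glycogen were examined in hearts of mice lacking the B and C variants of the sodium bicarbonate cotransporter NBCe1. The set was a list of 34 genes chosen by role, namely 4 genes of glucose uptake and phosphorylation, 15 of glycolysis, 5 of lactate and pyruvate dehydrogenase and 10 of glycogen synthesis and breakdown. They were matched to the count table by Ensembl gene identifier, and all 34 were among its 16018 genes. The hearts came from 3 female KO_b/c mice (genotype NBCe1-B/C KO) and 3 female wild-type (WT) mice, all between 4 and 5 weeks of age. Both genotypes were offspring of heterozygous parents on a C57BL/6J background. The loss of the B and C variants is present from conception and not limited to the heart, while the kidney variant NBCe1-A is kept, and KO_b/c mice die early, so the hearts of this age come from animals that had survived until then. Total RNA of each heart was sequenced as 1 library, and no treatment was given by the labels. A value below is a normalized count, which is the number of reads on a gene divided by a size factor for its library. The KO_b/c libraries held 42619258 to 49100802 reads on genes, and the WT libraries 41364857 to 42037397. Counting error alone is between 0.296% (*Gapdh*) and 5.45% (*Pfkfb1*) of a member's count.

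Cardiac muscle draws most of its energy from fatty acids and uses glucose and lactate beside them, the more so before adulthood and under stress. Glucose enters through GLUT1 (*Slc2a1*) and the insulin-responsive GLUT4 (*Slc2a4*), and hexokinase traps it as a phosphate ester. From there it either runs through glycolysis, whose pace is set largely by phosphofructokinase, or is added to glycogen by glycogen synthase. Glycogen phosphorylase, switched on by phosphorylase kinase, returns glycogen to glycolysis. Pyruvate at the end of glycolysis is reduced to lactate or is fed into mitochondrial oxidation by the pyruvate dehydrogenase complex. Intracellular pH, which NBCe1 helps to regulate, is a known modulator of phosphofructokinase activity at the protein level, which mRNA counts do not measure.

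The targeted gene was checked first. *Slc4a4*, which encodes NBCe1, was listed at 264, 945 and 269 in the libraries labelled KO_b/c (replicates 1, 2 and 3) and at 675, 822 and 789 in those labelled WT. KO_b/c replicate 2 thus lay above all 3 WT libraries, while the other two KO_b/c libraries lay far below them. The table gives totals per gene and not per exon, so where in the gene the remaining reads fell is not known. The results for the 34 members were therefore also computed without KO_b/c replicate 2, and directions are those of the libraries as labelled. The labelled tissue was checked with 10 cardiomyocyte markers, all of them abundant, with a summed normalized count of 2906065 to 3280005 in KO_b/c and 2546908 to 2674792 in WT libraries. Reads were counted on bulk hearts, in which fewer cells of a type and less RNA per cell cannot be told apart.

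No member of the set passed a false discovery rate of 0.05 between the genotypes, and none of the 16016 genes tested did (percent called 0, limma on log2(normalized count + 1), Benjamini-Hochberg adjustment). The lowest adjusted p was 0.0815, over all genes and over the members, which *Gys1* and *Pygm* shared with other genes. At an unadjusted p under 0.05, 9 members had higher values in KO_b/c hearts, or 26.5%, against 13% of all genes tested. In the other direction there were 2 members, or 5.88%, against 10.5% of all genes. This split depended on the scaling: rescaled to the same total, 5 members were higher and 5 lower (7.86% and 15.9% of all genes), and with quantile normalization 8 were higher and 6 lower (12% and 12.1%). The 3 KO_b/c values lay entirely above the 3 WT values for 11 members and entirely below them for 1, while this was so for 15.6% and 14.6% of all genes. The median log2 fold change was 0.14 over the 34 members and -0.0043 over all genes, with 22 members above 0 and 12 below. On the reads, edgeR's quasi-likelihood test gave no adjusted call either and had 12 members at an unadjusted p under 0.05. Of these, 10 were higher in KO_b/c and 2 lower, against 13.3% and 10.7% of all genes. DESeq2 on the reads called 8 members at an adjusted p under 0.05, of which 7 were higher in KO_b/c and 1 lower. This stands beside 8.22% and 5.02% of the 11981 genes to which it gave an adjusted p, of 16018 entered. With the libraries corrected for transcript length and GC content, DESeq2 called 2 members, *Gys1* and *Pygm*, and 345 genes in all, against 1587 without the correction. With 1 library left out it called 2 to 8 members, the fewest without WT replicate 1, where it called 428 genes in all.

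**Figure D1:**
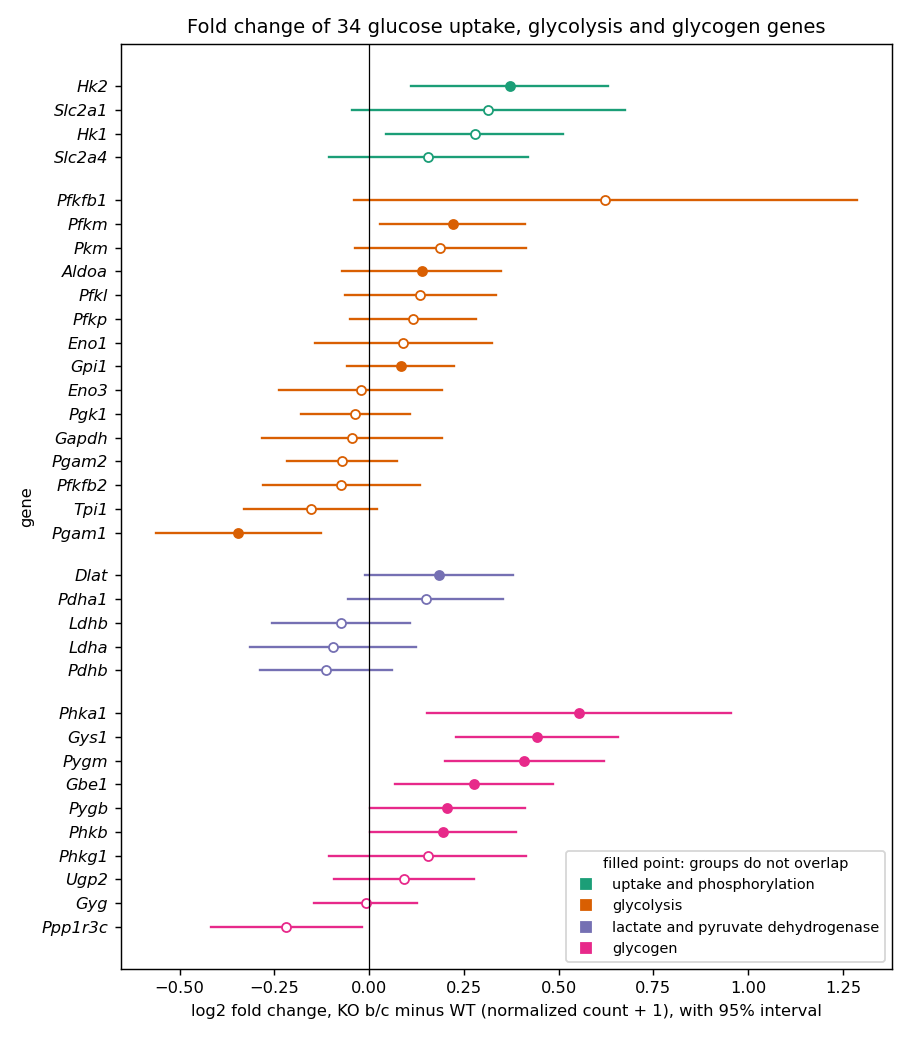
Log2 fold change (KO_b/c minus WT, horizontal axis) of the 34 genes, ordered within each role, with 95% intervals from limma. Filled points are the 12 genes whose KO_b/c and WT values do not overlap, and 6 of them are glycogen genes.

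The 4 genes of uptake and phosphorylation all had positive log2 fold changes, with a median of 0.30. *Hk2*, the insulin-responsive hexokinase of muscle, had normalized counts of 15058, 12351 and 12542 in KO_b/c and 10689, 11500.0 and 8781 in WT replicates 1, 2 and 3. Its KO_b/c values all lay above its WT values, with means of 13317 ± 1511 and 10323 ± 1396 (SD, n = 3). The log2 fold change was 0.37 (SE 0.11, limma adjusted p = 0.113, DESeq2 adjusted p = 0.0186). *Hk1*, the hexokinase most tissues use, had 12013, 11991 and 10519 in KO_b/c and 9059, 11000.0 and 8524 in WT libraries. Its groups overlapped through WT replicate 2, and the log2 fold change of 0.28 had an unadjusted p of 0.0244 and an adjusted p of 0.152 in limma. The basal transporter *Slc2a1* was listed at 935, 685 and 699 against 665, 699 and 501, where KO_b/c replicate 1 stood apart from the 2 other KO_b/c libraries, which lay near WT replicates 1 and 2. The insulin-responsive transporter *Slc2a4* was listed at 20285, 14542 and 16503 against 16087, 15273 and 14326, again with KO_b/c replicate 1 the highest. Without that library, the log2 fold change was 0.026 for *Slc2a4* (from 0.16), 0.17 for *Slc2a1* (from 0.31) and 0.28 for *Hk2*.

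The 15 genes of glycolysis split, with 8 positive and 7 negative log2 fold changes and a median of 0.083. The positive ones lay mostly at the upper end of the pathway. *Pfkm*, the muscle subunit of phosphofructokinase, had 64510.3, 54606 and 59049 in KO_b/c and 50714, 51832 and 50068 in WT libraries. All 3 KO_b/c values were above the WT values, and the 3 WT values lay close together. Its log2 fold change of 0.22 (95% interval 0.029 to 0.41) had an adjusted p of 0.164 in limma and 0.0448 in DESeq2. The liver-type subunit *Pfkl* (0.13, -0.065 to 0.33) and the platelet-type subunit *Pfkp* (0.12, -0.051 to 0.28) had smaller log2 fold changes, and their groups overlapped. *Gpi1*, which converts the phosphate esters of glucose and fructose into each other, was listed at 25891, 26317 and 25125 in KO_b/c and 24359.8, 24823 and 23829 in WT libraries. The groups did not overlap, although the means differed by a factor of only 1.06. *Aldoa*, the muscle aldolase, also had KO_b/c values (111799, 96189 and 99846) above all WT values (94984, 94611 and 89619), with a log2 fold change of 0.14 (SE 0.093).

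At the lower end, the genes from triose phosphates to pyruvate showed mostly small differences. *Tpi1*, which interconverts the triose phosphates, had 33059, 29282 and 30517 in KO_b/c and 36313, 32659 and 34359 in WT libraries, with overlap at KO_b/c replicate 1. Its log2 fold change was -0.15, and after the length and GC correction it was -0.019. For *Gapdh* (-0.045, -0.28 to 0.19) and *Pgk1* (-0.036, -0.18 to 0.11), the enzymes that form and use the first high-energy phosphate of the pathway, the 95% intervals spanned 0. The intervals of the muscle mutase *Pgam2* (-0.072, -0.22 to 0.073), of the ubiquitous enolase *Eno1* (0.090, -0.14 to 0.32) and of the muscle enolase *Eno3* (-0.022, -0.24 to 0.19) spanned 0 as well. *Pkm*, the pyruvate kinase of muscle, was listed at 74208, 59199.7 and 64827 against 60427, 58032 and 54987, so that KO_b/c replicate 2 lay among the WT libraries and the other two KO_b/c libraries above them. Its log2 fold change was 0.19 with all libraries and 0.26 without KO_b/c replicate 2, where DESeq2 gave an adjusted p of 0.0487.

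*Pgam1*, the mutase form of most non-muscle tissues (ENSMUSG00000011752, chromosome 19, 41911923 to 41918660, plus strand, GRCm38), was the only member whose KO_b/c values all lay below its WT values. It had 1328, 1255 and 1410.1 in KO_b/c and 1811, 1805 and 1474 in WT libraries, or 1331 ± 77.6 against 1696 ± 193 (SD, n = 3). The highest KO_b/c library and the lowest WT library were close to each other. The log2 fold change was -0.34 (SE 0.096, limma adjusted p = 0.0958, DESeq2 adjusted p = 0.0187). Without KO_b/c replicate 2 the DESeq2 adjusted p was 0.0922, and with the length and GC correction it was 0.284. Of the 100-base stretches of its principal transcript, 39.7% also occur in annotated pseudogenes, so the reads assigned to it depend on how shared reads were counted, which is not given in the sources used here. Stretches shared with other annotated transcripts also made up over 10% of *Gapdh* (78%), *Pgk1* (67%), *Eno1* (59%), *Pfkfb2* (23.9%) and *Pdhb* (10.5%).

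The bifunctional enzymes that make and remove the sugar bisphosphate activating phosphofructokinase were read separately. *Pfkfb1* (ENSMUSG00000025271, chromosome X, 150588229 to 150643878, plus strand), the form first known from liver and skeletal muscle, was listed at 524, 221 and 488 in KO_b/c and 279, 223 and 247 in WT libraries. KO_b/c replicates 1 and 3 stood clearly above every WT library, and KO_b/c replicate 2 was the lowest of the 6. Over the 6 libraries the order of *Pfkfb1* was the exact reverse of the order of *Slc4a4*, which held for 27 of the genes tested (0.169%) and for no other member. Any single order of 6 libraries holds for few genes, so this small share does not show a link to *Slc4a4*, which was not tested. The match also rests on close values, 264 and 269 for *Slc4a4* in KO_b/c replicates 1 and 3. For *Pfkfb1* they were 221 in KO_b/c replicate 2 and 223 in WT replicate 2. With all libraries the log2 fold change was 0.62 (SE 0.29, limma adjusted p = 0.237, DESeq2 adjusted p = 0.0422). Without KO_b/c replicate 2 it was 1.02, with an adjusted p of 0.128 in limma and 2.11e-06 in DESeq2, and in limma its p of 6.9e-05 was then the 4th lowest of 16016. This was noticed after the values were seen, and it leaves 2 KO_b/c libraries. Of the 34 members, 13 share exon bases with another gene of the table. *Apex2*, on the opposite strand, overlaps 3.06% of the annotated exon bases of *Pfkfb1*, and whether reads were assigned by strand is not given in the sources used here. *Apex2* had 442, 246 and 356 in KO_b/c and 322, 247 and 259 in WT libraries, with KO_b/c replicates 1 and 3 highest as well, and the part of the overlap in the *Pfkfb1* values was not tested. *Pfkfb2*, the form known best from heart, was listed at 1098, 1248 and 1018 against 1176, 1241 and 1114. Its groups overlapped, and the log2 fold change was -0.074 (95% interval -0.28 to 0.13).

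**Figure D2:**
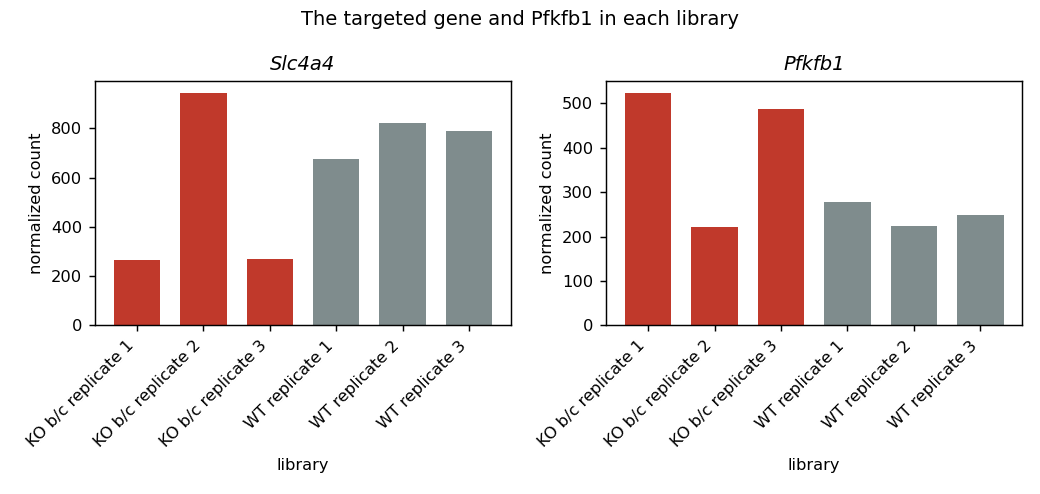
Normalized counts of *Slc4a4* (left) and *Pfkfb1* (right) in each of the 6 libraries, with KO_b/c libraries in red and WT libraries in grey. KO_b/c replicate 2 is the highest library for *Slc4a4* and the lowest for *Pfkfb1*.

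The 5 genes of lactate and pyruvate dehydrogenase had a median log2 fold change of -0.074, which was 0.081 with the length and GC correction, and none had an unadjusted p under 0.05. *Ldha*, the lactate dehydrogenase subunit of glycolytic tissue, had 39958, 32777 and 38264 in KO_b/c and 42843, 37363 and 38224 in WT libraries. *Ldhb*, the subunit of oxidative tissue and heart, had 50654, 48920.1 and 46492 against 50918, 54612 and 48350.5. Both pairs of groups overlapped, with log2 fold changes of -0.096 and -0.074. Of the pyruvate dehydrogenase genes, *Dlat*, the acetyltransferase at the core of the complex, had KO_b/c values (27539.5, 22702 and 23152) above all WT values (21473, 22032 and 20884) and a log2 fold change of 0.18 (95% interval -0.011 to 0.38). The catalytic subunit *Pdha1* was listed at 67503, 55600.2 and 59966 against 53293, 55976 and 55372 and its partner *Pdhb* at 40341, 35810.1 and 38121 against 42989, 39606 and 41073. The 2 subunits of the same enzyme thus had log2 fold changes of opposite sign, 0.15 and -0.11, each with an interval that spanned 0.

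The glycogen genes accounted for 6 of the 12 members whose groups were separated. Of the 10 genes, 6 had KO_b/c values entirely above the WT values and an unadjusted p under 0.05 (*Gys1*, *Gbe1*, *Pygm*, *Pygb*, *Phka1* and *Phkb*), beside 15.6% of all genes separated upward and 13% at this p, and 1 had an unadjusted p under 0.05 in the other direction (*Ppp1r3c*). The median log2 fold change was 0.20, and without KO_b/c replicate 2 it was 0.23. Without KO_b/c replicate 1 it was 0.14, and with all libraries at the same total 0.13. With replicate 1 left out, *Pygb* and *Phkb* had unadjusted p of 0.114 and 0.152 in limma. *Gys1*, *Gbe1*, *Pygm* and *Phka1* stayed under 0.05, where 8.64% of all genes were then higher in KO_b/c. With all libraries DESeq2 called 4 of the 10, all higher in KO_b/c, and genes of both synthesis and breakdown were among them. Of all genes with an adjusted p in DESeq2, 8.22% were called higher.

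On the side of synthesis, *Gys1*, muscle glycogen synthase (ENSMUSG00000003865, chromosome 7, 45434844 to 45456619, plus strand), had 6260.4, 5212 and 5269 in KO_b/c and 3969.6, 4519.8 and 3817 in WT libraries. The lowest KO_b/c library stood above the highest WT library, and the means were 5580.4 ± 589.5 and 4102 ± 369.5 (SD, n = 3), a ratio of 1.36. Its log2 fold change was 0.44 (SE 0.093, limma adjusted p = 0.0815, DESeq2 adjusted p = 0.00123), and it was 0.36 without KO_b/c replicate 1 and 0.49 without replicate 2. *Ruvbl2*, on the opposite strand and sharing 6.47% of the exon bases of *Gys1*, had 1037, 1076 and 1136 against 1249, 1140.0 and 1002, with overlapping groups. *Gbe1*, the branching enzyme, was listed at 3260.2, 2585 and 2680.1 against 2293, 2414 and 2295 and had a log2 fold change of 0.28 (DESeq2 adjusted p = 0.0482), which was 0.17 without KO_b/c replicate 1. The primer protein *Gyg* (6229, 6401 and 6067 against 6008, 6450.1 and 6366) showed overlapping groups, with a 95% interval of -0.14 to 0.13. *Ugp2*, which makes the UDP-glucose that synthase consumes, was listed at 11154, 9863 and 9042 against 9315, 9523 and 9254, with KO_b/c replicate 3 the lowest and replicate 1 the highest of all 6.

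On the side of breakdown, *Pygm*, muscle glycogen phosphorylase (ENSMUSG00000032648, chromosome 19, 6384399 to 6398459, plus strand), had 65625, 56102 and 58995 in KO_b/c and 42568, 49080.1 and 44373 in WT libraries. The gap between the groups, from the highest WT to the lowest KO_b/c library, was wider than the spread within WT. The means were 60241 ± 4882 and 45340.4 ± 3362 (SD, n = 3), a ratio of 1.33, and the log2 fold change was 0.41 (SE 0.092, limma adjusted p = 0.0815, DESeq2 adjusted p = 0.000528). *Pygb*, the brain form of phosphorylase, which heart also expresses, was listed at 54304, 46679 and 44832 against 41419.5, 43767 and 40793, with a log2 fold change of 0.21 (limma adjusted p = 0.208).

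Phosphorylase kinase activates phosphorylase and is built of alpha, beta and gamma subunits with calmodulin. *Phka1*, the muscle alpha subunit (ENSMUSG00000034055, chromosome X, 102513975 to 102644246, minus strand), had 3562, 1997 and 2426 in KO_b/c and 1799, 1744 and 1739 in WT libraries. The 3 WT values lay within a narrow range, and the KO_b/c values were spread widely, with replicate 1 far above the others. The log2 fold change of 0.55 (SE 0.18, limma adjusted p = 0.117, DESeq2 adjusted p = 0.00688) was 0.32 without replicate 1 and 0.74 without replicate 2. With the length and GC correction, the DESeq2 adjusted p was 0.116. *Phkb*, the beta subunit, was listed at 3280.0, 2769 and 2724 against 2405, 2632 and 2609 and had a log2 fold change of 0.19 (limma adjusted p = 0.21). *Phkg1*, the catalytic gamma subunit of muscle, had 1458, 1385 and 1593 against 1137, 1322 and 1552, and its groups overlapped. *Ppp1r3c*, a subunit that brings protein phosphatase to glycogen and so favours synthesis, had 4802, 3903 and 4097 in KO_b/c and 5278, 4777 and 4801 in WT libraries. Its KO_b/c replicate 1 lay among the WT values, so the groups overlapped, and the log2 fold change was -0.22 (unadjusted p = 0.0346, limma adjusted p = 0.179).

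**Figure D3:**
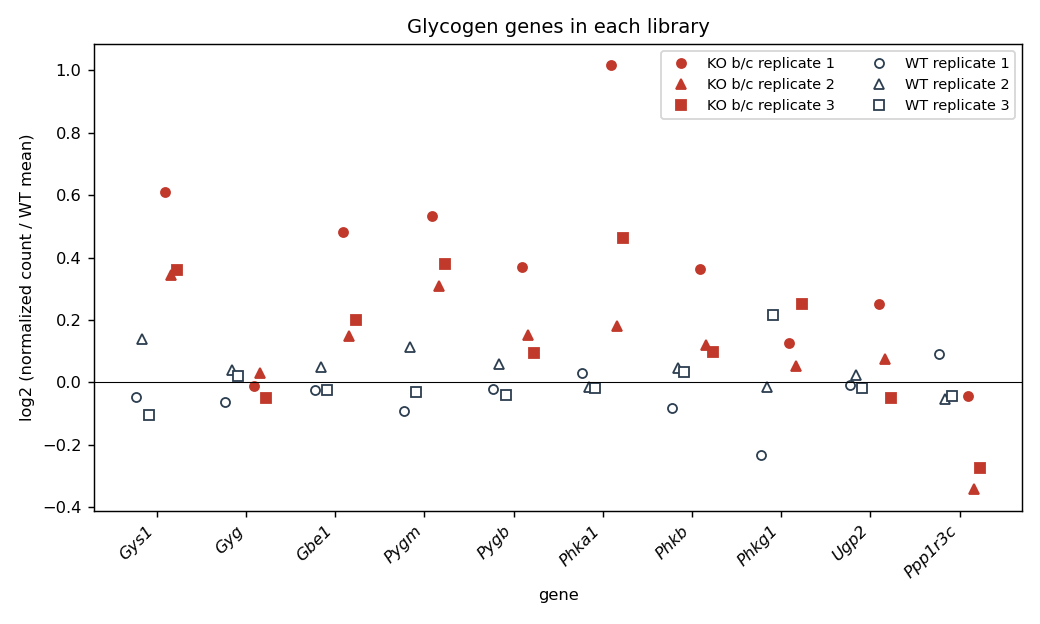
Log2 of the normalized count over the WT mean (vertical axis) for the 10 glycogen genes in each library, KO_b/c filled and WT open, with a symbol for each replicate number. For *Gys1*, *Gbe1*, *Pygm*, *Pygb*, *Phka1* and *Phkb* all KO_b/c points lie above all WT points, and KO_b/c replicate 1 is the highest.

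KO_b/c replicate 1 was often the upper extreme of these values, being the highest of the 6 libraries for 20 of the 34 members and for 28.2% of all genes. WT replicate 3 was the lowest for 14 members and for 15.6% of all genes. With KO_b/c replicate 1 left out, 8 members had an unadjusted p under 0.05 in limma, 5 higher in KO_b/c and 3 lower. The shares of all genes were 8.64% higher and 7.74% lower. DESeq2 called 4 members. Over all genes DESeq2 then called 776, against 1587 with all libraries. KO_b/c replicate 1 also had the lowest summed counts of skeletal muscle and of adipose markers, though not of each marker, with *Tnnt3* at 11.9, 802 and 60.3 in KO_b/c against 122, 65.5 and 188 in WT libraries and *Ucp1* at 17.9, 724 and 2948 against 525, 1888 and 1097. *Tnnt3* encodes a fast skeletal troponin and *Ucp1* the uncoupling protein of brown fat, and *Tnnt3* was highest in KO_b/c replicate 2. The summed level of the 9 skeletal muscle markers tested, of 12 listed, was 872 to 4020.3 in KO_b/c and 1224 to 1691 in WT libraries, and that of the 9 adipose markers tested, of 10 listed, was 2012 to 9009 in KO_b/c and 3791 to 7979 in WT libraries. The defining skeletal genes *Myh4*, *Myod1* and *Myog* were not in the table. The cardiomyocyte markers went both ways. Of the 10, 5 were separated upward in KO_b/c (*Myh6*, *Actn2*, *Ryr2*, *Ttn* and *Mybpc3*) and 3 downward (*Tnni3*, *Myl2* and *Myl3*). Their summed level given above did not overlap between the genotypes and was higher in KO_b/c, but without *Myh6*, the main myosin heavy chain of the adult mouse heart, it was 2020776, 1796984 and 1819902 in KO_b/c and 1896708, 1805720.5 and 1781890.3 in WT libraries, which overlap. The summed level of 10 macrophage markers was lower, at 14489.8 to 16589 in KO_b/c and 17597 to 18090.4 in WT libraries. Of these, 4 were separated downward (*C1qa*, *C1qb*, *C1qc* and *Lyz2*), and 4 others had positive log2 fold changes. The summed level of 10 endothelial markers, at 60107 to 64451 in KO_b/c and 58239.5 to 58560.3 in WT libraries, did not overlap either. Of these, 4 were separated upward and 1 downward (*Egfl7*). The sums of fibroblast, erythroid and lymphocyte markers overlapped. The part of these cell markers in the glucose and glycogen results was not tested.

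Transcript length moved with the fold changes as well. Over 15978 genes, Spearman's rho between the log2 fold change and the length of the longest transcript was 0.454, and over the 34 members it was 0.565. This is a description across genes, which share the 6 libraries and are not independent replicates. With the libraries corrected for length and GC content, the median log2 fold change was 0.16 over the members and 0.21 over the glycogen genes, and 27 of the 34 members kept their direction. For *Gys1* and *Pygm* the corrected log2 fold changes were 0.46 and 0.47, with DESeq2 adjusted p of 0.0066 and 0.00194. Rescaling all libraries to the same total count moved the median of all genes to -0.077 and that of the members to 0.063, and all 34 members kept their direction.

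The promoters of the 2 glycogen genes that kept their DESeq2 calls and of *Pgam1*, the only member whose groups were separated downward, are shown to set the opposite cases side by side. Each is the 250 bases before the transcription start as given by RefSeq (GRCm38.p6), written 5′ to 3′ on the gene's strand, which is the plus strand for all 3. The coordinates are chr7:45434589-45434838 for *Gys1*, chr19:6384158-6384407 for *Pygm* and chr19:41911621-41911870 for *Pgam1*. Capitals mark matches, on either strand, to the motifs ACGTG and GCGTG, the core letters bound by hypoxia-inducible factors, to CACGTG, the E-box, which contains ACGTG and is counted under both, to GGGCGG, the GC box, and to TATAAA, the TATA box.
Gys1: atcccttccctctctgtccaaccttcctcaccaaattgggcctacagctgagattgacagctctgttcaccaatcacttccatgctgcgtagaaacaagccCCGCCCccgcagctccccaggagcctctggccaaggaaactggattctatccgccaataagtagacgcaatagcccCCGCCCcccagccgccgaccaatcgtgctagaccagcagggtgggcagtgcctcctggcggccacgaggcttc
Pygm: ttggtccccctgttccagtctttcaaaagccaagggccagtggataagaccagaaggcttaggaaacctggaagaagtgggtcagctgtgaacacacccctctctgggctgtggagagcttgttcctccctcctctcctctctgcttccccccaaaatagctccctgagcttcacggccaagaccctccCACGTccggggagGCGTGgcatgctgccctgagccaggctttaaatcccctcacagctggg
Pgam1: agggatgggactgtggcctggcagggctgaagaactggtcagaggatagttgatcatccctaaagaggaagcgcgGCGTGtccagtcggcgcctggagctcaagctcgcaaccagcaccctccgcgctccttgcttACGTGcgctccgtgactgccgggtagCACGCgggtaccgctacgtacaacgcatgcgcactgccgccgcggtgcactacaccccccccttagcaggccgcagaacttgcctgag
The *Gys1* window held 2 matches to the GC box and none to the other motifs. The *Pygm* window held 1 match to ACGTG and 1 to GCGTG. The *Pgam1* window held 1 match to ACGTG and 2 to GCGTG. *Pygm* and *Pgam1*, whose values differed in opposite directions, thus held matches to the same 2 motifs.

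Promoter windows were found for 33 of the 34 members. ACGTG was present in 11 of them, or 33.3%, against 16.6% of 27025 promoters of all genes and 21.2% of the 11584 promoters whose genes were in the count table. GCGTG was present in 19, or 57.6%, against 28.2% and 43.5%. The GC box was present in 16, or 48.5%, against 32.9% of all promoters and 57% of those in the table, and the E-box in 3 (*Pfkm*, *Ldha* and *Ppp1r3c*), or 9.09%, against 6.05% and 8.22%. TATAAA was present in no member window, against 13% and 6.74%. These shares describe letters in the windows and were not tested. For genes with several starts, the member window was at the start nearest the annotated 5′ end. The comparison window was at the first start listed, so the shares are not fully like for like.

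The levels of the members spanned a wide range when compared per length. For the members named above with stretches shared with other annotated transcripts, the level depends on how shared reads were counted. In WT hearts *Gapdh* had 81446 ± 3678 normalized counts per kb of its principal transcript (SD, n = 3), *Aldoa* 61596 ± 1982, *Eno3* 43243 ± 1808 and *Ldhb* 39336 ± 2414. The order from there, by the mean over the 6 libraries, was *Pdhb*, *Pkm*, *Ldha*, *Pgam2*, *Pdha1*, *Tpi1*, *Pfkm* and *Pygm*, from 27246 down to 15776 per kb, and in this stretch no neighbours had ranges apart from each other over the 6 libraries. At the other end stood *Phka1* (288 ± 5.45), *Pfkfb2* (266 ± 14.4), *Slc2a1* (191 ± 32.4) and *Pfkfb1* (144 ± 15.9). The muscle forms *Aldoa*, *Eno3*, *Pkm*, *Pgam2* and *Pfkm* were thus more abundant per length than the transporter *Slc2a4* (6033) and the hexokinases *Hk1* (2474) and *Hk2* (1873). Phosphorylase exceeded synthase, with *Pygm* at 15776 ± 1169.8 and *Gys1* at 1115 ± 100.5 per kb in WT, and at 20961 ± 1699 and 1517 ± 160.3 in KO_b/c hearts.

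**Figure D4:**
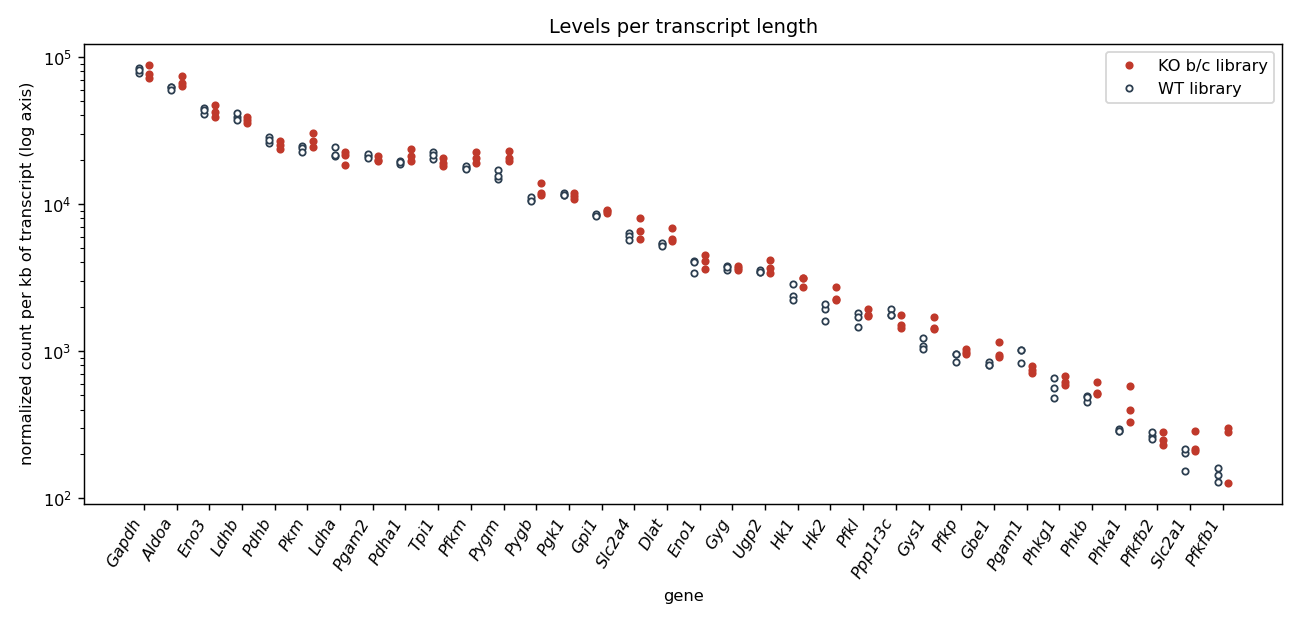
Normalized count per kb of principal transcript (vertical axis, log scale) of the 34 genes in each library, ordered by their mean over the 6 libraries. KO_b/c libraries are filled and WT libraries open, and the genes run from *Gapdh* to *Pfkfb1*.

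Many of these enzymes exist in several forms, and 9 ratios of such pairs were compared. A ratio within a library does not depend on the scaling between libraries. Most pairs set a muscle form over another form. For *Ldhb* over *Ldha* and *Pfkfb2* over *Pfkfb1* the first is the form of heart, and these are not pairs of muscle over non-muscle forms. The muscle form was the more abundant per length for *Slc2a4* over *Slc2a1* (32.1 ± 4.41 in WT, SD, n = 3), *Pfkm* over *Pfkl* (10.7 ± 1.09), *Pfkm* over *Pfkp* (19.3 ± 1.55), *Pgam2* over *Pgam1* (22.4 ± 2.2) and *Eno3* over *Eno1* (11.4 ± 1.42). The ratio was closer to 1 for *Ldhb* over *Ldha* (1.77 ± 0.191), *Pygm* over *Pygb* (1.47 ± 0.0645), *Pfkfb2* over *Pfkfb1* (1.87 ± 0.276) and *Hk2* over *Hk1* (0.758 ± 0.0576). Stretches shared with other annotated transcripts made up 39.7% of *Pgam1*, 59% of *Eno1* and 23.9% of *Pfkfb2*, but 0% of *Pgam2* and *Eno3*. The ratios with these genes therefore depend on how shared reads were counted, which is not given in the sources used here. With 3 against 3 libraries the exact permutation test cannot give a p under 0.1, so no ratio could pass a threshold of 0.05.

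The log2 ratio of counts of *Pygm* to *Pygb* was 0.27, 0.27 and 0.40 in KO_b/c and 0.039, 0.17 and 0.12 in WT libraries. The groups did not overlap, and the difference was 0.20 (95% interval 0.047 to 0.36, exact permutation p = 0.1, adjusted over the 9 ratios 0.45). The per-length ratio was 1.69 ± 0.0871 in KO_b/c, against the WT value above. For *Pgam2* to *Pgam1* the log2 ratios were 3.74, 3.71 and 3.58 in KO_b/c and 3.30, 3.35 and 3.56 in WT libraries, which did not overlap either, with a difference of 0.27 (0.0095 to 0.54, exact permutation p = 0.1, adjusted 0.45). The log2 fold change was -0.072 for *Pgam2* and -0.34 for *Pgam1*. Without KO_b/c replicate 2 the 2 ratios differed by 0.23 and 0.26. The other 7 ratios overlapped. The one with the largest difference among them was *Pfkfb2* to *Pfkfb1*, at -0.70 with all libraries and -1.17 without KO_b/c replicate 2. The ratio of *Ldhb* to *Ldha* differed by 0.022 (95% interval -0.33 to 0.37).

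**Figure D5:**
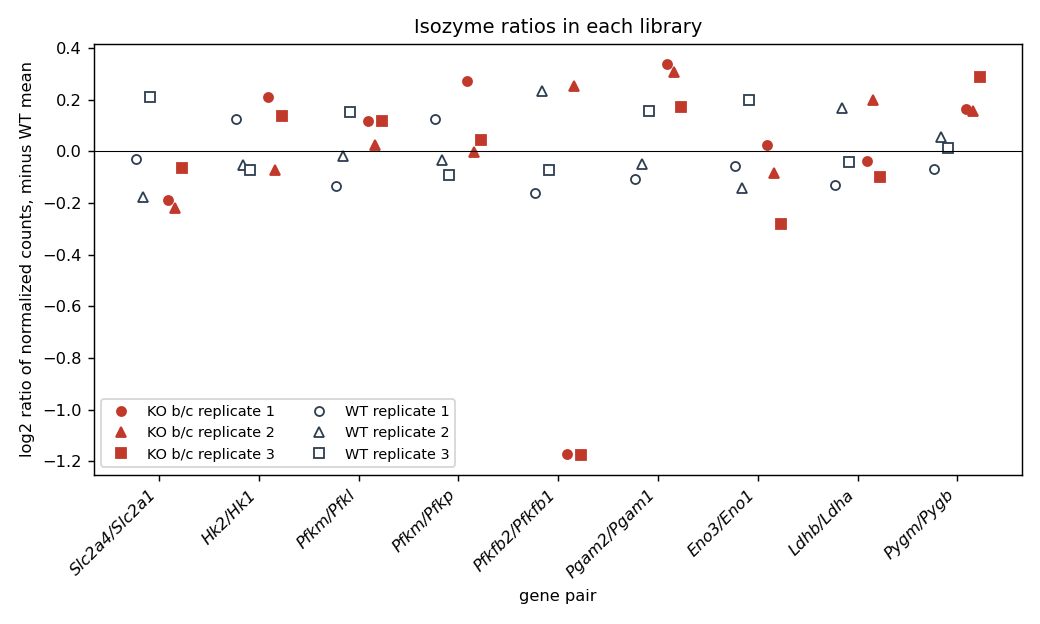
Log2 ratio of the normalized counts of 9 isozyme pairs in each library, minus the WT mean of that ratio (vertical axis), KO_b/c filled and WT open. The KO_b/c points of *Pygm*/*Pygb* and *Pgam2*/*Pgam1* all lie above the WT points, and for *Pfkfb2*/*Pfkfb1* KO_b/c replicates 1 and 3 lie far below.

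Further genes of the same pathways were read from a list of 83, of which 78 were in the test. None passed the adjusted threshold in limma, 24 had an unadjusted p under 0.05 with higher values in KO_b/c (30.8%, against 13% of all genes) and 2 with lower values (2.56%, against 10.5%). Values were separated upward for 24, or 30.8% against 15.6% of all genes, and downward for 6, or 7.69% against 14.6%. DESeq2 called 14 higher and 1 lower, beside 8.22% and 5.02% of all genes to which it gave an adjusted p. The share was highest among the 25 regulators, of which 14, or 56%, had higher values in KO_b/c at an unadjusted p under 0.05, against 7 of the 22 other glycogen genes, 3 of the 12 other genes of pyruvate handling and none of the other genes of uptake and glycolysis. The regulators are long, with a median transcript length of 5006 bases against 3188 over all genes, and their median log2 fold change of 0.27 was 0.15 with the length and GC correction. Their summed level was 145393 to 160957 in KO_b/c and 111275 to 140281 in WT libraries.

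The 7 genes named next, from those with the lowest p in that list, all had higher values in KO_b/c, separated groups and adjusted p of 0.0815 or 0.0823 in limma. *Gsk3b*, a kinase that inhibits glycogen synthase, had 2817, 2400.4 and 2292 in KO_b/c and 1622, 1880.5 and 1648 in WT libraries and a log2 fold change of 0.54 (SE 0.095). Around pyruvate dehydrogenase, the phosphatase *Pdp2* that activates it was listed at 1672, 1526 and 1625 against 994, 1263 and 1011, and *Pdpr*, a regulatory subunit of pyruvate dehydrogenase phosphatase, at 4773, 3577 and 3377 against 2366, 2691 and 2842, with log2 fold changes of 0.57 and 0.56. The values of *Pdp2* were close together within KO_b/c, and those of *Pdpr* were highest in KO_b/c replicate 1. *Prkaa2*, the catalytic subunit of AMP-activated kinase that predominates in muscle, had 6802, 5802 and 5309.6 against 3815, 4792 and 4295. Of the transcription factors, *Mef2d*, of a family that drives muscle genes including *Slc2a4*, had 8932, 9129 and 8515 against 6964, 7135 and 7356. *Mlxip*, a glucose-sensing factor, had 3049, 2705 and 2582 against 1937, 2225 and 2104, and *Epas1*, a hypoxia-inducible factor, 16523, 12978 and 12866 against 8799.8, 11087 and 9116. The log2 fold changes were 0.47 for *Prkaa2*, 0.31 for *Mef2d*, 0.41 for *Mlxip* and 0.54 for *Epas1*. With the length and GC correction they were 0.29, 0.21, 0.23 and 0.43 in that order, and 0.33 for *Gsk3b*. DESeq2 called all 7 without this correction, and with it the adjusted p was 0.115 for *Prkaa2*, 0.145 for *Mlxip* and 0.0873 for *Mef2d*, while the other 4 stayed under 0.05. The other pathway genes had a median log2 fold change of 0.17, and of 0.089 with the length and GC correction.

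With KO_b/c replicate 2 left out, whose *Slc4a4* count was at the WT level, the median log2 fold change of the 34 members was 0.18. In that comparison 12 had an unadjusted p under 0.05 in limma, 11 higher in KO_b/c and 1 lower. The shares of all genes were 11.9% higher and 8.92% lower. None of the members passed the adjusted threshold in limma, where 3 of all genes did. DESeq2 again called 8 members, and 1197 genes in all. Those 8 were *Hk2*, *Pfkm*, *Pfkfb1*, *Pkm*, *Gys1*, *Gbe1*, *Pygm* and *Phka1*, so that *Pkm* was called in place of *Pgam1*. Their log2 fold changes were then 0.42 for *Hk2*, 0.28 for *Pfkm*, 0.34 for *Gbe1* and 0.46 for *Pygm*, beside the values given above for the others. Between the libraries labelled KO_b/c, the values of *Pfkfb1* differed by more than 2-fold between replicate 2 and the others, while those of *Gys1* and *Pygm* in replicate 2 stood above all WT values.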

How the data were processed

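Hearts of 3 female KO_b/c and 3 female WT mice were analysed from the deposited table, which holds a normalized signal: the authors' read counts per gene, scaled by 1 size factor per library and not by gene length. The submitters' processing notes name Trimmomatic 0.36, STAR 2.5.2b, featureCounts, Subread 1.5.2, DESeq2 and the build GRCm38. The multi-read and strand settings are not given in the sources used here. Columns were matched to samples by the animal's name in the labels, and none was left over.

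The value of 1 read was found per library from the spacing of low values and refined by a fit over the genes, after which 100% of values in every library were whole reads within 0.1. For KO_b/c replicate 1 and WT replicate 2 the lowest value alone did not settle this step. Symbols (15980 genes), positions and transcripts came from GENCODE M21, chosen here.

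The main test was limma 3.58.1 with a variance trend (R 4.3.3) on log2(normalized count + 1). It was two-sided and covered 16016 genes, those whose mean reached 10, and p-values were adjusted over all of them after Benjamini and Hochberg and read at 0.05. The pseudocount understates fold changes of low genes, and the lowest member had a mean of 330.4. edgeR 4.0.16 and DESeq2 1.42.0 were run on the recovered reads. For the length and GC correction, a trend was fitted per library (splines with 5 degrees of freedom). It was given to DESeq2 as offsets and subtracted from the log2 values for limma, and edgeR was run without it. Ratios were compared with exact two-sided permutation tests over the libraries, and their intervals assume normal spread. Per-kb levels use the APPRIS principal transcript. The scripts were tested on simulated data. All 34 members are named, and of the other pathway genes the 8 with the lowest p, of which 1 is not reported here. The members and lists were chosen with earlier results of these data known. The labels do not say whether the same replicate numbers in both genotypes pair the mice, and the main test used no pairing. Deviations from the group means correlated at 0.23, 0.07 and -0.03 between same-numbered libraries and at -0.18 to 0.15 between the others. With 3 mice per group this cannot exclude a pairing.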

Additional observations from a re-analysis of the deposited data

How the results depend on the processing

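All 34 members kept their direction under both pseudocounts, rescaling to the same total, quantile normalization, TMM, quality weights, edgeR and DESeq2. The filters and the variance trend do not enter a member's fold change, so its direction could not change with them. No member passed the adjusted threshold in limma or edgeR under any setting. DESeq2 called 8. At an unadjusted p under 0.05, limma had 11 members, 7 without a variance trend and 6 to 12 with 1 library left out (6 without WT replicate 1, 7 without WT replicate 3). Of all genes, 10.4% were higher in KO_b/c and 9.67% lower at this p without a variance trend. With 1 library left out, 8.64% to 12.5% were higher and 6.46% to 9.97% lower. With the replicate number as a block, 13 members had an unadjusted p under 0.05 in limma, 10 higher in KO_b/c and 3 lower. The shares of all genes were 13.6% and 10.9%. DESeq2 with this block called 6 members, and 1113 genes in all. The labels do not say whether the numbers pair the mice. The DESeq2 count of 8 was 5 without independent filtering, 2 with the length and GC correction, and 2 to 8 with 1 library left out (4 without KO_b/c replicate 1, and 2, 4 and 3 without WT replicates 1, 2 and 3). Over all genes, DESeq2 called 1587, against 1404 without independent filtering and 345 with that correction. It called 776, 1197 and 1490 genes without KO_b/c replicates 1, 2 and 3. Without WT replicates 1, 2 and 3 it called 428, 1419 and 1118. The number of members with separated groups was 12, beside 15.6% of all genes separated upward and 14.6% downward. It was 10 with the length and GC correction, 15 with quantile normalization and 16 at the same total. With 1 library left out it was 14 to 19, as fewer values are left to overlap. The share of all genes was not computed for these other settings, so their counts cannot be set against it.

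The glycolysis median was 0.010 at the same total, 0.025 with quantile normalization and -0.00034 to 0.097 with 1 library left out. The lactate and pyruvate dehydrogenase median was -0.15, -0.13 and, with the length and GC correction, 0.081, and -0.12 to -0.011 with 1 library left out. That correction also turned *Pfkp* (-0.11), *Pgk1* (0.066), *Pgam2* (0.13), *Eno3* (0.12), *Ldha* (0.014), *Ldhb* (0.081) and *Gyg* (0.083). With 1 library left out, the log2 fold change ranged from -0.13 to 0.020 for *Gapdh*, -0.00034 to 0.17 for *Eno1*, -0.097 to 0.044 for *Eno3*, -0.040 to 0.011 for *Gyg*, and the *Ldhb* to *Ldha* difference from -0.067 to 0.11. The causes of these shifts were not tested.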

Other observations

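The next genes, 1 from the list of pyruvate handling and 1 from the regulators, were chosen after their values had been seen. *Pdk4*, a kinase that inhibits pyruvate dehydrogenase and is known to respond to fasting, was listed at 19091, 57122 and 17396 in KO_b/c and 8566, 19328 and 15483 in WT libraries. KO_b/c replicate 2 lay far above the other 5 libraries, and the log2 fold change was 0.96 with all libraries (limma adjusted p = 0.234) and 0.41 without that library. *Txnip*, a glucose-responsive inhibitor of glucose uptake, was listed at 25494, 50768 and 40336 against 13721, 37659 and 31971, with replicate 1 the lowest and replicate 2 the highest in each genotype.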
